A study of Mus musculus with 8 samples.

Results

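The variable segments of the T cell receptor alpha and beta chains, the Trav and Trbv genes, were examined in polyA RNA sequencing of mouse CD8+ T cells from spleens and lymph nodes. A segment was included when its normalised read count was at least 10 in at least 2 libraries of an experiment. This gave 103 of the 163 listed segments in the knockout experiment (81 Trav and 22 Trbv), and 66 of 165 in the IL-2 experiment (45 Trav and 21 Trbv), with 63 in both. In all, 15415 and 13978 genes met the same minimum. Of the included segments, 90 and 56 met it in all 4 libraries. Another 3 in the first experiment met it in both knockout libraries only, and 1 in the second met it in both untreated libraries only. Just inside the minimum lay Trav1 and Trav6-2 in the knockout experiment (second-highest value 10.8 each) and Trav7d-3 in the IL-2 experiment (10.3). Just outside lay Trav6d-4 (9.85) and Trav15-1-dv6-1 (9.59). Trav11 and Trav11d, the segments of the invariant NKT cell receptor, did not reach the minimum in either experiment.

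In the first experiment, cells with the Trim28 knockout (Trim28-/-) were compared with control cells of genotype Trim28fl/fl, labelled WT, that had also been activated in vitro. The second experiment used cells labelled WT, which received anti-CD3 and anti-CD28 over 3 days and were either given anti-IL-2 or left untreated. Each of the 4 groups had 2 libraries. Whether the 2 were separate mice or cultures is not given, so a p-value reflects the scatter of a pair of libraries and that scatter may be technical. The Cre driver, the mouse strain and the ages are not given in the sources used here.

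Each T cell joins 1 variable segment to a joining segment in the alpha locus, and to diversity and joining segments in the beta locus, while it matures in the thymus. Mature T cells keep the joined genes, and the encoded alpha and beta chains pair into the receptor that recognises peptide and MHC. The most variable loop of each chain begins at a conserved cysteine close to the 3′ end of the variable segment. In bulk RNA, a change in how many cells carry a segment and a change in RNA per cell cannot be told apart.

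The 3′ ends of some segments described below are shown for comparison. These are the last 60 coding bases on the plus strand of GRCm38, from the GENCODE M21 transcripts, and the capitals mark the last cysteine codon in the reading frame. The first set is the Trbv13 family, whose members responded differently, with their neighbours Trbv15 and Trbv16, which moved in opposite directions:
Trbv13-1 (chr6:41116409-41116468): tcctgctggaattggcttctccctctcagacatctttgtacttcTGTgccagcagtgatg
Trbv13-2 (chr6:41121773-41121832): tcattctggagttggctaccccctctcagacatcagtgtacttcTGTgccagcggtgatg
Trbv13-3 (chr6:41130526-41130585): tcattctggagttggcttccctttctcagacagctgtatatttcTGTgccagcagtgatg
Trbv15 (chr6:41141599-41141658): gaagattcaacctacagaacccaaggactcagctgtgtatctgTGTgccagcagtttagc
Trbv16 (chr6:41152171-41152230): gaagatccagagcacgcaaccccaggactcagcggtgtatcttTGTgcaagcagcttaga
Over the whole coding sequence, Trbv13-2 and Trbv13-3 were 90.6% identical, Trbv13-1 and Trbv13-2 87.9%, Trbv13-1 and Trbv13-3 85.3%, and Trbv15 and Trbv16 71.3%. At least 99.7% of the 50-base windows of each of these 5 transcripts occurred in no other Trav or Trbv transcript.

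The second set shows alpha segments that exist as near-identical copies, beside Trav17, every window of which was its own. In the knockout experiment Trav17 was included only through its knockout libraries:
Trav3-3 (chr14:53666447-53666506): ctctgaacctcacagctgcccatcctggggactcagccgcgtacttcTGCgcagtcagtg
Trav3d-3 (chr14:52972979-52973038): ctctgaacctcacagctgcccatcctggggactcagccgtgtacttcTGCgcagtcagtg
Trav3n-3 (chr14:53284116-53284175): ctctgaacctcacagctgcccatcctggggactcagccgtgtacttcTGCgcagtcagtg
Trav17 (chr14:53807056-53807115): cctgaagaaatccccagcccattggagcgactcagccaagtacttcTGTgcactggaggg
Trav3d-3 and Trav3n-3 shared all 343 coding bases, and Trav3-3 matched each of them at 339 of 343. The letters d and n in such names mark members of duplicated blocks of the mouse alpha locus.

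The tables of the 2 experiments differed in how these copies were counted. Of the 163 segments with an annotated transcript, 39 had no 50-base window of their own. Of these, 24 were included in the knockout table and 2 were at 0 there in all 4 libraries, whereas in the IL-2 table none was included and 31 were at 0. Trav3d-3 averaged 38.8 over the 4 libraries of the knockout experiment and 3.6 over those of the IL-2 experiment. In the knockout table, 4 pairs of segments, such as Trav12d-2 and Trav12n-2 (100% identical), held the same number of reads in every library. No pair did so in the IL-2 table. Segments with under 50% windows of their own held 57.1% of all Trav values in the first table and 19.8% in the second. Alpha levels and shares were therefore tested only within an experiment. Alpha ranks, correlations and effects that are set side by side across the experiments below carry this difference in counting. The beta segment Trbv5 lies inside the annotated lincRNA 5830405F06Rik on the same strand and was included only in the knockout table.

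**Figure D1:**
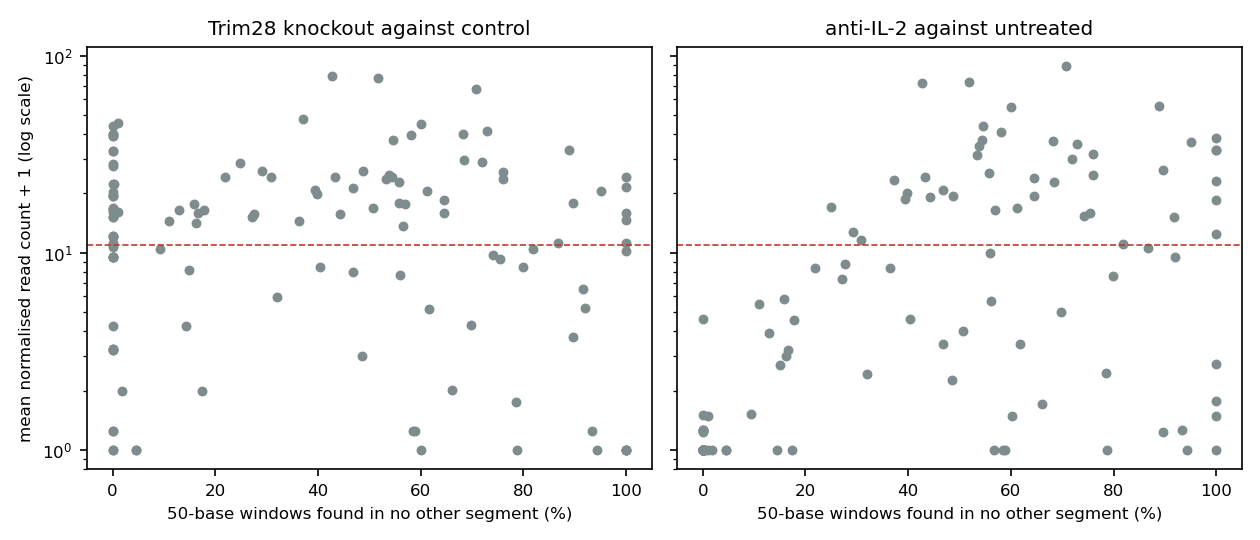
Mean normalised read count plus 1 of every listed Trav segment (log scale, mean of 4 libraries) against the share of its 50-base windows that occur in no other segment, in the knockout table (left) and the IL-2 table (right). The dashed line marks a value of 10. At 0% the knockout table has many segments above the line and the IL-2 table has none.

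Recovered reads ranged from 13222831 to 17069569 per library, of which 5314 to 7046 fell in all listed Trav and Trbv segments, included or not (0.0363% to 0.0488%). Trim28 stood at 415 and 458 in knockout libraries, against 4262 and 4323 in control libraries. Il2ra, the alpha chain of the IL-2 receptor, stood at 22025 and 21937 in anti-IL-2 libraries, against 44645 and 43661 in untreated libraries. Over all genes the 2 libraries of each group differed by more than sampling noise, with a chi-square per degree of freedom of 1.32 to 3.87. Over the included segments it was 0.436 in knockout, 0.492 in control, 1.41 in anti-IL-2 and 1.09 in untreated libraries. In the first experiment the 2 libraries of a group therefore differed at these segments by less than sampling noise. They were counted as separate libraries because they differed over all genes. The limma test takes its error from the spread between libraries and DESeq2 also models counting error, and call counts of both are given. In the first experiment the limma standard errors and p-values of the segments may therefore be smaller than counting error alone allows.

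The alpha chain took a larger share of segment reads in both tested conditions. In these shares, any read counted for several copies counts each time. Trav segments made up 35.6% and 35.5% of segment reads in knockout libraries, against 30.7% and 32.1% in control libraries. They made up 21.1% and 21.7% in anti-IL-2 libraries, against 18.6% and 17.6% in untreated libraries. The groups did not overlap in either experiment. The means were 35.6% ± 0.12 in the knockout and 31.4% ± 0.991 in the control, and 21.4% ± 0.407 with anti-IL-2 and 18.1% ± 0.699 in untreated cells (SD, n = 2 each). The differences were 4.15 and 3.35 percentage points, and 1.77 and 0.849 among segments with a minimum of 50. The exact permutation test (two-sided) gave p = 0.333 in each experiment, the smallest value that 2 against 2 libraries allow. Wilson 95% intervals of the single libraries, which cover counting error only and take each read as independent, were 34.5% to 36.8% and 34.3% to 36.7% in knockout libraries, against 29.5% to 32.0% and 30.9% to 33.4% in control libraries. They were 20.2% to 22.1% and 20.7% to 22.7% in anti-IL-2 libraries, against 17.6% to 19.6% and 16.6% to 18.5% in untreated libraries.

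In the knockout, each constant region had a log2 fold change close to the log2 ratio of its variable segments. The Trav total was 2201 and 2218 in knockout libraries, against 1635 and 1679 in control libraries, a log2 ratio of 0.42. Trac, the alpha constant region, stood at 11432 and 11517 in knockout libraries, against 8598 and 8441 in control libraries (log2 fold change 0.43, SE 0.023, limma adjusted p = 4.84e-05). The Trbv total had a log2 ratio of 0.15, and the beta constant regions Trbc1 and Trbc2 had log2 fold changes of 0.13 (limma adjusted p = 0.0378 and 0.0297). Per 100 Trac reads there were 19.3 ± 0.00746 Trav reads in the knockout and 19.5 ± 0.616 in the control (SD, n = 2 each), and the groups overlapped. Per 100 Trbc1 and Trbc2 reads there were 24.9 ± 0.678 Trbv reads in the knockout and 24.6 ± 0.309 in the control, again with overlap.

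With anti-IL-2, variable segment reads per constant region read were higher in both loci. The Trav total averaged 1406 ± 14 with anti-IL-2 and 1115 ± 47.4 in untreated cells (SD, n = 2 each), a log2 ratio of 0.33. Trac had a log2 fold change of 0.10 that did not pass (limma adjusted p = 0.0752). Per 100 Trac reads there were 8.04 ± 0.192 Trav reads with anti-IL-2 and 6.86 ± 0.376 in untreated cells, without overlap (exact permutation p = 0.333). The Trbv total had a log2 ratio of 0.029, whereas Trbc1 fell (log2 fold change -0.14, limma adjusted p = 0.033) and Trbc2 stood at -0.12 (limma adjusted p = 0.0519). Trbv reads per 100 Trbc1 and Trbc2 reads numbered 44.7 ± 0.688 with anti-IL-2 and 40.2 ± 2.54 in untreated cells, without overlap.

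**Figure D2:**
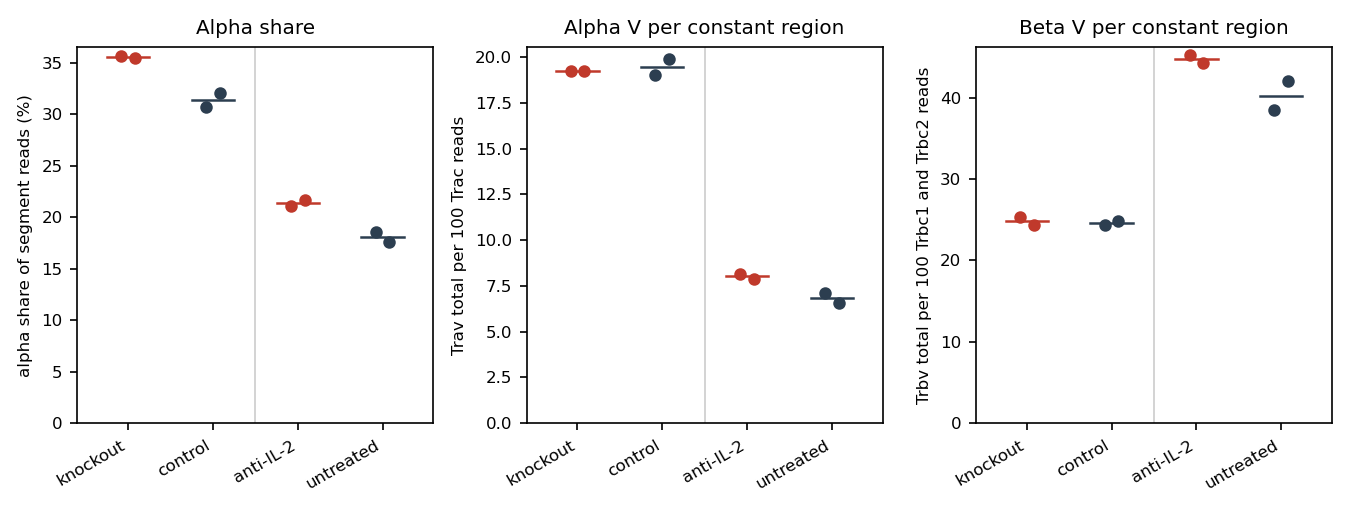
Share of Trav in all segment reads (left), Trav total per 100 Trac reads (middle) and Trbv total per 100 Trbc1 and Trbc2 reads (right), with a point per library and a line at the group mean. The alpha share is higher in knockout than in control and higher with anti-IL-2 than in untreated libraries, while the 2 ratios to constant regions overlap between knockout and control and are separate in the IL-2 experiment.

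Usage was spread over many segments in every library. The effective number of segments is the exponential of the Shannon entropy of the shares, which equals the number of segments when all are used alike. For Trav it was 70.2 ± 0.624 in the knockout and 70.3 ± 0.594 in the control, and 37.7 ± 0.191 with anti-IL-2 and 37.7 ± 1.03 in untreated cells (SD, n = 2 each), with overlap in both experiments. These Trav numbers count near-identical copies as separate segments. Included segments with no window of their own numbered 24 in the knockout experiment and 0 in the IL-2 experiment. The Trav numbers are therefore not comparable between the experiments. For Trbv the effective number was 17.5 ± 0.039 in the knockout and 17.6 ± 0.0233 in the control, without overlap (exact permutation p = 0.333). It was 16.3 ± 0.175 with anti-IL-2 and 15.9 ± 0.347 in untreated cells, with overlap.

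Scaled to transcript length and averaged over the 4 libraries of an experiment, the same 6 beta segments led in both. Trbv13-2 came first, with 12.9% of the length-scaled Trbv total over the 4 libraries of the knockout experiment and 12.6% over those of the IL-2 experiment. Trbv12-2 followed with 9.07% and 11.7%, then Trbv29 with 8.88% and 8.54%, and Trbv13-1 with 7.95% and 7.94%. Trbv3 and Trbv12-1 completed the 6. Within groups the order differed below Trbv13-2, which was first in all 4 groups. In knockout cells Trbv1 stood above Trbv3 and Trbv12-1, and in control cells Trbv29 stood above Trbv12-2. With anti-IL-2, Trbv16 (7.14%) stood above Trbv12-1 (6.66%). Trbv12-1 thus ranked 7 in knockout cells and with anti-IL-2. Among alpha segments, on that scale and average, Trav16n (3.76%), Trav16 (3.61%) and Trav12-2 (3.15%) led in the knockout experiment, and Trav12-2 (6.33%), Trav16n (5.39%) and Trav16 (5.32%) in the IL-2 experiment. Shares in control and in untreated cells, unscaled, had a Pearson correlation of 0.957 across the 21 Trbv segments of both experiments and of 0.819 across the 42 Trav segments. These are descriptions across segments, which share libraries and counting.

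In the knockout, 30 of 103 segments rose and 3 fell at a limma adjusted p under 0.05 (limma over all genes tested). Of all genes tested, 61.0% were called, 32.9% higher and 28.2% lower, so the share of segments called (32.0%) was below that of all genes, as was the share lower (2.91%), and the share higher (29.1%) was close to it. The median log2 fold change was 0.35 over the segments and 0.031 over all genes tested. Among Trav, 21 of 81 rose and 0 fell, with a median of 0.38, and edgeR and an unadjusted limma p under 0.05 also gave 0 lower. Among Trbv, 9 of 22 rose and 3 fell, with a median of 0.11. By libraries, 71 segments were higher in both knockout libraries than in both control libraries and 9 were lower, 68.9% and 8.74% of the segments. Of all genes 82.3% were separate, 43.4% higher and 38.9% lower. The number called fell to 12 without knockout library 1 and to 11 without knockout library 2, and DESeq2 on the recovered reads called 4, namely Trbv13-2, Trbv13-3, Trbv12-1 and Trbv15. The 2 included pseudogenes, Trav8-2 and Trbv24, did not pass in either experiment.

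Trbv13-2 (ENSMUSG00000076469.3, chr6:41121396-41121832) held the most reads of the family in the knockout experiment and rose in the knockout. Its normalised read count was 540 and 514 in knockout libraries, against 362 and 331 in control libraries, without overlap. The log2 fold change was 0.60 (SE 0.063, limma adjusted p = 0.000493). As a share of Trbv reads it took 13.6% and 12.7% in knockout libraries, against 9.82% and 9.34% in control libraries. The Wilson 95% intervals, 12.6% to 14.7% and 11.7% to 13.8% in knockout libraries against 8.89% to 10.8% and 8.42% to 10.3% in control libraries, did not overlap between groups. Trbv13-3 was at 180 and 158 in knockout libraries, against 98.4 and 74 in control libraries (log2 fold change 0.97, SE 0.15, limma adjusted p = 0.00248), a call lost without knockout library 1 (limma adjusted p = 0.0774) or 2 (0.0565). Trbv13-1 was at 277 and 308 in knockout libraries, against 289 and 274 in control libraries, with overlap (log2 fold change 0.053, limma adjusted p = 0.559).

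Neighbouring beta segments moved in opposite directions in the knockout. Trbv15 fell to 115 and 135 in knockout libraries, against 197 and 194 in control libraries (log2 fold change -0.64, SE 0.097, limma adjusted p = 0.00214). Trbv16, the next segment of the locus, stood at 182 and 183 in knockout libraries, against 132 and 121 in control libraries (log2 fold change 0.53, SE 0.079, limma adjusted p = 0.00204). Both groups of libraries were separate for each of them. Trbv12-1 fell to 219 and 225 in knockout libraries, against 314 and 283 in control libraries (-0.42), and Trbv3 fell to 267 and 259, against 322 and 312 (-0.27). The call of Trbv12-1 was lost without knockout library 1 (limma adjusted p = 0.0678) or 2 (0.0572), and that of Trbv3 without knockout library 2 (0.059). Trbv1 (log2 fold change 0.36), Trbv14 (0.37) and Trbv5 (0.41) rose, with the calls of Trbv1 and Trbv14 lost without either knockout library and that of Trbv5 without knockout library 2. For Trbv5, the lincRNA that spans it was at 110 and 94.1 in knockout libraries, against 70 and 91.2 in control libraries, and its part in the Trbv5 value was not tested. Trbv12-2 stood at 0.17 and Trbv29 at -0.082, of which Trbv12-2 passed (limma adjusted p = 0.04) but not without any single library.

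Relative to the total of its own locus, 5 Trbv segments gained share and 6 lost share in the knockout, as did 2 and 2 Trav segments. With that scaling of the segments, 60.9% of all genes tested were called, 32.7% higher and 28.2% lower. Trbv13-2 (log2 change of share 0.46), Trbv13-3 (0.83), Trbv16 (0.39), Trbv14 (0.22) and Trbv5 (0.26) gained, and Trbv15 (-0.79), Trbv12-1 (-0.57), Trbv3 (-0.42), Trbv26 (-0.39), Trbv20 (-0.38) and Trbv29 (-0.23) lost. Among Trav, Trav3-3 (0.54) gained, Trav17 (0.79), which was included only through its knockout libraries, gained as well, and Trav7-3 (-0.73) and Trav7d-3 (-0.66) lost. Trav7-3 and Trav7d-3 had only 29.2% and 30.9% windows of their own, so how their reads were assigned is uncertain. The changes of share of Trbv13-2, Trbv15, Trbv12-1 and Trbv3 passed whichever single library was left out. Those of Trbv13-3, Trbv16, Trbv14, Trbv5, Trbv29, Trav17 and Trav3-3 were lost without at least 1. So were those of Trbv20, Trbv26, Trav7-3 and Trav7d-3. The number of segments with a change of share was 15, against 6 without knockout library 1 and 7 without knockout library 2.

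**Figure D3:**
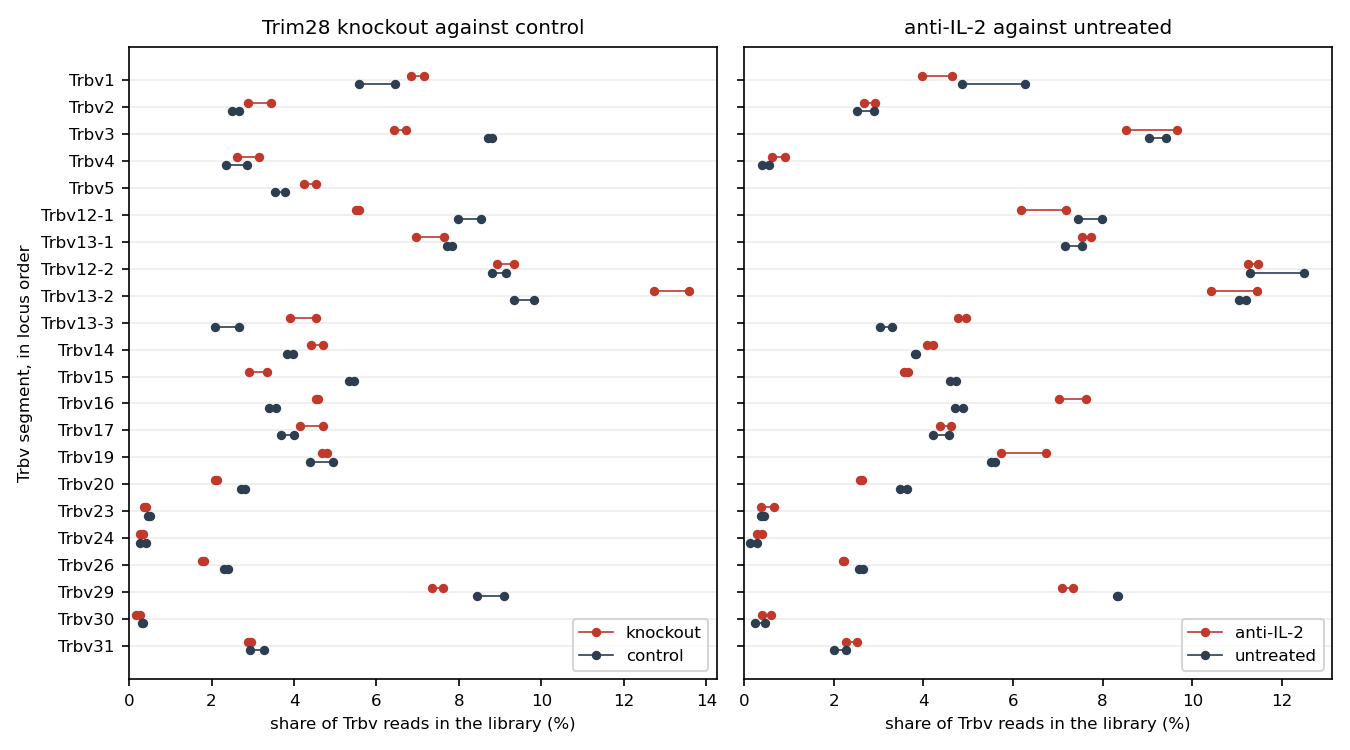
Share of each Trbv segment in all Trbv reads of a library, with segments in locus order from top to bottom; the left panel gives knockout above control and the right panel anti-IL-2 above untreated, with 2 joined points per group. Trbv13-3 and Trbv16 are shifted to higher shares and Trbv15 and Trbv20 to lower shares in both panels. Trbv13-2 lies at 12.7% to 13.6% in knockout, above 9.34% to 9.82% in control, while its points overlap between anti-IL-2 and untreated.

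Of the alpha segments, 76 of 81 had a positive log2 fold change in the knockout, and 21 passed. With the copies of each segment summed, 15 alpha segments rose. Trav17 (ENSMUSG00000096397.7, chr14:53806639-53807115), had the largest log2 fold change among those called. It met the minimum only through the knockout libraries, so its inclusion was tied to being higher there, as was that of Trav21-dv12, also among the 21. Trav17 was at 20.7 and 21.6 in knockout libraries, against 9.13 and 8.11 in control libraries. That is 21 and 22 reads in knockout libraries, against 9 and 8 reads in control libraries. Its log2 fold change was 1.2 (SE 0.21, limma adjusted p = 0.00409, DESeq2 adjusted p = 0.199). Trav3-3 was at 50.2 and 66.7 in knockout libraries, against 29.4 and 29.4 in control libraries (log2 fold change 0.95, limma adjusted p = 0.00436). Its copies Trav3d-3 and Trav3n-3 had log2 fold changes of 0.62 each. Trav14-2 (0.80), Trav13-1 (0.79) and Trav16 (0.51) also rose, the last 2 not without knockout library 1 (limma adjusted p = 0.08 and 0.0682) and Trav13-1 also not without knockout library 2 (0.07). Trav16n, with the highest mean share of Trav reads over the 4 libraries and 42.7% windows of its own, was at 87.6 and 88.2 in knockout libraries, against 66.9 and 67.9 in control libraries (0.38, limma adjusted p = 0.0155), a call lost without knockout library 1 (0.0621) or 2 (0.0631). Trav12-2 was at 83.7 and 71.6, against 53.8 and 58.8 (0.45), and did not pass without knockout library 1 (limma adjusted p = 0.114) or control library 1 (0.0687). Trav12n-3 and Trav12d-3 stood at 0.16 and 0.17 and did not pass. Trav16d-dv11 stood at 0.38 (limma adjusted p = 0.0586). Trav1, the segment of the MAIT cell receptor, was at 10.8 and 11.8 in knockout libraries, against 8.11 and 6.08 in control libraries, and did not pass (limma adjusted p = 0.0995).

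The duplicated blocks of the alpha locus and the rest of it all had positive medians. In the knockout, 5 of 22 segments with the letter d, 4 of 22 with the letter n and 12 of 37 without a letter rose, against 32.9% of all genes tested, with median log2 fold changes of 0.34, 0.35 and 0.45. These groups are not independent, because copies can hold nearly the same reads. Trav3d-3 held 48 and 48 reads in knockout and 29 and 31 in control libraries, and Trav3n-3 held 48, 47, 29 and 30. With the copies of each segment summed, 27 of 65 segments were called, 24 higher and 3 lower, against 61.0% of all genes called in the main fit. Among the 55 included segments with at least 50% windows of their own, 20 rose and 3 fell in the knockout. Of all genes tested there, 32.9% rose and 28.2% fell. In the IL-2 experiment the counts were 9 and 3 of 55 such segments, where 31.4% of all genes tested rose and 28.9% fell.

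**Figure D4:**
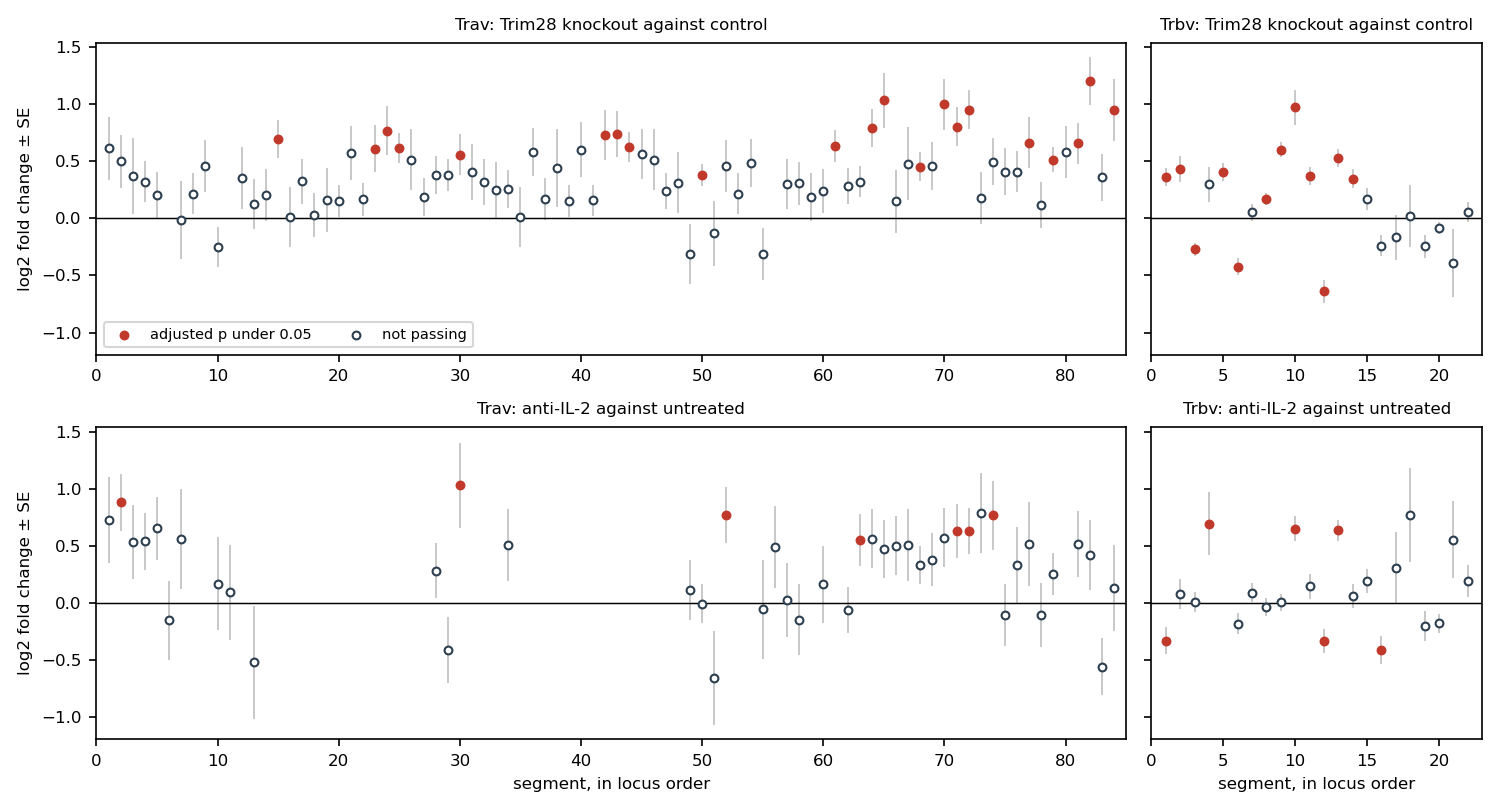
Log2 fold change ± SE of every included segment in locus order, Trav on the left and Trbv on the right, for knockout over control (upper row) and anti-IL-2 over untreated (lower row); filled points passed an adjusted p under 0.05, and a gap is a segment not included in that experiment. Called Trav segments lie above 0 in both experiments, and called Trbv segments lie on both sides of it.

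With anti-IL-2, 10 of 66 segments rose and 3 fell at a limma adjusted p under 0.05. Of all genes tested, 60.3% were called, 31.4% higher and 28.9% lower, so each share among the segments (19.7%, 15.2% and 4.55%) was below that of all genes. The median log2 fold change was 0.26 over the segments and 0.018 over all genes tested. Among Trav, 7 of 45 rose and 0 fell by limma, with a median of 0.42, and 1 was lower by edgeR and 1 at an unadjusted limma p under 0.05. Among Trbv, 3 of 21 rose and 3 fell, with a median of 0.076. By libraries, 30 segments were higher in both anti-IL-2 libraries and 10 were lower, 45.5% and 15.2% of the segments. Of all genes 79.3% were separate, 41.1% higher and 38.2% lower. DESeq2 on the recovered reads called 2, Trbv13-3 and Trbv16, and 6 passed without a minimum value or with a minimum of 50.

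Trbv16 (ENSMUSG00000076473.3, chr6:41151740-41152230) had the smallest adjusted p with anti-IL-2. It was at 366 and 389 in anti-IL-2 libraries, against 246 and 239 in untreated libraries, without overlap (log2 fold change 0.64, SE 0.093, limma adjusted p = 8e-06, DESeq2 adjusted p = 0.000151). Its share of Trbv reads was 7.32% ± 0.429 with anti-IL-2 and 4.80% ± 0.126 in untreated cells (SD, n = 2 each). Trbv13-3 rose to 248 and 253 in anti-IL-2 libraries, against 153 and 167 in untreated libraries (0.65, SE 0.11, limma adjusted p = 4.7e-05). Trbv13-2, its nearest relative, was at 543 and 584 in anti-IL-2 libraries, against 564 and 560 in untreated libraries, with overlap (0.0024, limma adjusted p = 0.981), and its sign turned with edgeR and with DESeq2. Trbv13-1 stood at 0.088 and did not pass.

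Trbv20 fell to 135 and 134 in anti-IL-2 libraries, against 183 and 176 in untreated libraries (log2 fold change -0.41, limma adjusted p = 0.00596). Trbv15 fell to 186 and 187, against 232 and 240 (-0.34, limma adjusted p = 0.0103), a call lost without untreated library 2 (0.0732). Trbv1 was at 207 and 237 in anti-IL-2 libraries, against 316 and 247 in untreated libraries (-0.33, limma adjusted p = 0.0209), a call lost without anti-IL-2 library A (0.071), without untreated library 1 (0.376) and on scaling to total reads (0.0801). Trbv4 stood at 46.8 and 31.7 in anti-IL-2 libraries, against 28.1 and 19.6 in untreated libraries (0.69), and its call was lost without anti-IL-2 library A or untreated library 2 (limma adjusted p = 0.28 and 0.227). Trbv4 also lies in the span of the lincRNA 5830405F06Rik, which fell (log2 fold change -0.63). Within the beta locus, Trbv16, Trbv13-3 and Trbv4 gained share and Trbv20, Trbv15, Trbv1 and Trbv29 lost share, and 3 Trav segments lost share, namely Trav19 (log2 change of share -0.89), Trav16d-dv11 (-0.75) and Trav13n-4 (-0.99), the last included only through its untreated libraries. The share changes of Trbv16, Trbv13-3, Trbv20 and Trbv15 passed whichever single library was left out, and those of Trbv1, Trbv4 and Trbv29 did not. The 3 Trav losses of share did not all pass with each library left out, and which of them passed was not listed. With that scaling 60.2% of all genes tested were called, 31.4% higher and 28.9% lower.

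Among the alpha segments that rose with anti-IL-2, Trav2 was at 45.8 and 50.8 in anti-IL-2 libraries, against 32.2 and 20.6 in untreated libraries (log2 fold change 0.88, limma adjusted p = 0.00551). Trav3-3 was at 68.7 and 62.3, against 36.4 and 48.4 (0.63). Trav14d-3-dv8 (1.03), Trav14n-3 (0.77), Trav4-4-dv10 (0.77) and Trav14-2 (0.63) rose as well, and Trav12-1 (0.55, limma adjusted p = 0.0458) made 7. Whether the call of Trav12-1 held without single libraries was not examined. Each of the first 6 calls was lost on leaving out at least 1 library, for Trav2 untreated library 2 (limma adjusted p = 0.0781) and for Trav3-3 anti-IL-2 library A (0.0545) or untreated library 1 (0.13). For Trav14d-3-dv8 these were anti-IL-2 library A or untreated library 2, for Trav14n-3 anti-IL-2 library A or untreated library 1, for Trav14-2 anti-IL-2 library B or untreated library 1, and for Trav4-4-dv10 anti-IL-2 library B or either untreated library. Trav12-2, the most used alpha segment, was at 91.6 and 103 in anti-IL-2 libraries, against 68.6 and 86.5 in untreated libraries, and did not pass (0.33, limma adjusted p = 0.0958). Trav16n (-0.008), Trav16 (0.25), Trav7-5 (-0.064) and Trav13-1 (0.56) did not pass either. Trav1 was at 24.8 and 18.2 in anti-IL-2 libraries, against 18.7 and 8.24 in untreated libraries, with overlap, and did not pass (limma adjusted p = 0.105).

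The 2 experiments share no libraries, and a joint model of their 8 libraries compared the effects. The difference passed for 3 of 63 segments, each time with the knockout effect the higher one. Of all genes tested 41.7% passed, 24.7% with the knockout effect higher and 17.0% with it lower. Trbv13-2 had the smallest adjusted p among the segments, with 0.60 in the knockout and 0.0024 with anti-IL-2 (difference 0.60, SE 0.097, limma adjusted p = 0.000326). Trbv1 rose in the knockout (0.36) and fell with anti-IL-2 (-0.33), a difference of 0.70 (SE 0.17, limma adjusted p = 0.00483). Trav19 was at 26.6 and 25.5 in knockout libraries, against 23.3 and 17.2 in control libraries. It was at 24.8 and 26.9 in anti-IL-2 libraries, against 43.6 and 34 in untreated libraries. Its difference was 0.92 (SE 0.35, limma adjusted p = 0.0491) and did not pass on leaving out knockout library 1 or 2, control library 2, either anti-IL-2 library or untreated library 1. Genes were matched by symbol, and the different counting of the tables was not modelled.

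Of the 63 segments of both experiments, 7 were called in both, which is 29.2% of the 24 called in the knockout and 53.8% of the 13 called with anti-IL-2. Of all genes tested, 61.0% were called in the knockout and 60.3% with anti-IL-2. The share of all genes called in both was not computed, so this overlap is a description only. Of the 7 segments, Trbv13-3, Trbv16, Trav3-3, Trav14-2 and Trav14d-3-dv8 rose in both, Trbv15 fell in both, and Trbv1 rose in the knockout and fell with anti-IL-2. For Trbv13-3 the log2 fold changes were 0.97 and 0.65, for Trbv16 0.53 and 0.64, for Trbv15 -0.64 and -0.34, for Trav3-3 0.95 and 0.63, for Trav14-2 0.80 and 0.63, and for Trav14d-3-dv8 0.56 and 1.03. The knockout call of Trav14d-3-dv8 (limma adjusted p = 0.0376) was lost on leaving out any single library. Across the 21 Trbv segments the Pearson correlation of the 2 log2 fold changes was 0.41, and across the 42 Trav segments 0.396, as a description with segments of a locus sharing their libraries.

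**Figure D5:**
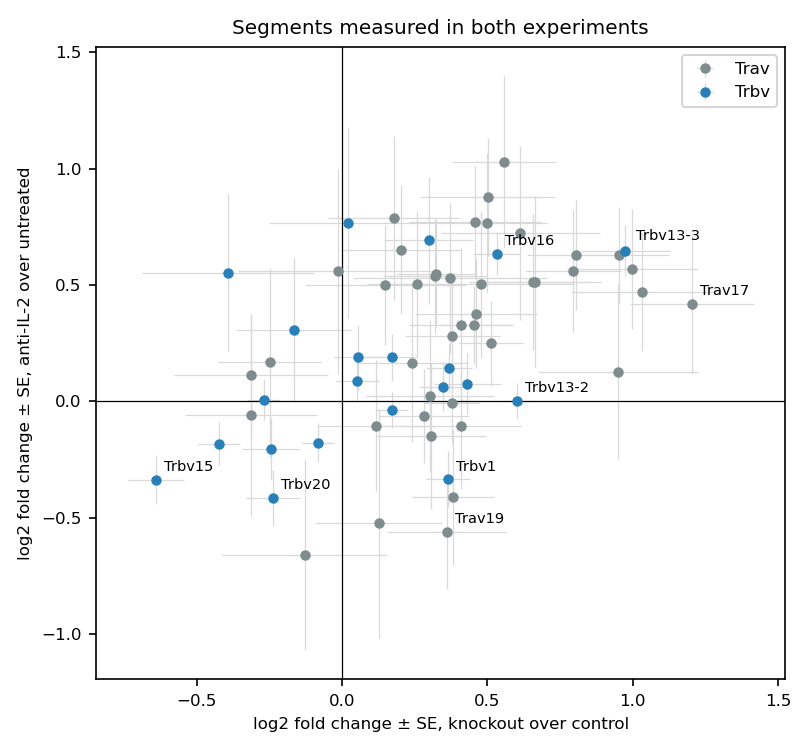
Log2 fold change ± SE of each segment in the knockout (horizontal axis) and with anti-IL-2 (vertical axis) for the 63 segments of both experiments, with Trbv in blue and Trav in grey. Trbv13-3 and Trbv16 lie at the upper right, Trbv15 at the lower left, Trbv13-2 on the horizontal axis, and Trbv1 and Trav19 at the lower right.

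The joining segments form part of the same rearranged genes. Of 20 alpha joining segments tested, 4 rose in the knockout (Traj49, Traj40, Traj39 and Traj34), against 32.9% of all genes tested. All 4 met the minimum only in the knockout libraries, so their inclusion was tied to being higher there. The median log2 fold change of the 20 was 0.42 and covers such segments too. Of 14 beta joining and diversity segments 0 passed by limma or by edgeR, and 1 had an unadjusted limma p under 0.05, with a median of 0.031. With anti-IL-2, 2 of 22 alpha joining segments rose (Traj18, which the invariant NKT receptor also uses, and Traj4) and 2 fell (Traj37 and Traj1). Traj18 and Traj4 met the minimum only in the anti-IL-2 libraries and Traj1 only in the untreated libraries. The inclusion of these segments was therefore tied to their direction. Of 16 beta joining and diversity segments 6 fell, against 28.9% of all genes tested, with a median of -0.45. The largest of these falls was that of Trbj1-3, at 22.9 and 24 in anti-IL-2 libraries, against 37.4 and 49.4 in untreated libraries (log2 fold change -0.85).

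Genes of the constant regions and of the receptor complex split in the knockout. Of 11 such genes tested, 7 rose and 3 fell, where 61.0% of all genes were called, 32.9% higher and 28.2% lower. Those that rose were the constant regions Trac, Trbc1, Trbc2, Trdc and Tcrg-C2, and with them Cd3e and Cd8a. Cd3g, Cd247 and Cd8b1 fell, and Cd3d did not pass. Cd3e, a signalling subunit, rose (0.35), and Cd247, the zeta chain, fell (-0.59), as did the coreceptor chain Cd8b1 (-0.48), while its partner Cd8a rose (0.25). With anti-IL-2, 6 of 10 fell, against 28.9% of all genes, among them Cd247 (-1.05), Cd8b1 (-0.54) and Cd8a (-0.40). Of the recombination genes, 3 of 9 rose and 2 fell in the knockout, and 4 of 10 rose and 2 fell with anti-IL-2. Over all genes 32.9% rose and 28.2% fell in the knockout, and 31.4% rose and 28.9% fell with anti-IL-2, so these shares were near the background. Dntt, which adds untemplated nucleotides at the joints, was at 13.8 and 17.6 in knockout libraries, against 100.4 and 81.1 in control libraries. It was at 0.955 and 0.959, which is 1 read each, in anti-IL-2 libraries, against 88.3 and 93.7 in untreated libraries. Xrcc5, an end-joining factor, rose in both (1.01 and 0.88), and Rag2 was at 0 in all 8 libraries. Of 12 transcription factors that act at these loci, 9 rose and 1 fell in the knockout and 7 rose and 1 fell with anti-IL-2, to be read against those same shares of all genes. Runx3 was the one that fell (-0.77 and -1.29), and Myb (0.50 and 1.2) and Tcf3 (0.77 and 0.67) rose in both.

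Markers of other cells ranged from 0 to the level of receptor genes, and some moved with the groups. Calls among these short lists are to be read against all genes tested. Of those, 32.9% rose and 28.2% fell in the knockout, and 31.4% rose and 28.9% fell with anti-IL-2. Cd8a stood between 4154 and 7217 in every library and Cd4 between 0 and 9.55. Of 6 gamma-delta T cell markers, 2 of the 2 tested rose in the knockout, with a summed level of 114 to 115 in knockout libraries, against 28.4 to 36.5 in control libraries. They were Trdc, at 68.9 and 73.5 in knockout libraries, against 24.3 and 22.3 in control libraries, and Tcrg-C2. Trdv4 was at 0 throughout. Trav names ending in dv belong to segments that can also join to the delta chain, and the part of such transcripts in their values was not tested. For the IL-2 experiment the sum covers 3 of these 6 genes, namely Trdc, Sox13 and Trdv4, and is not comparable with that of the knockout experiment. It was 39.1 to 46 in anti-IL-2 libraries, against 39.1 to 42.6 in untreated libraries. The invariant NKT and MAIT list summed to 19.7 to 21.6 in knockout and 7.10 to 11.2 in control libraries, and to 20.1 to 26.7 in anti-IL-2 and 12.4 to 22.9 in untreated libraries, with Zbtb16 at 0 in all. Of 4 CD4 T cell genes, 1 of 3 tested rose and 2 fell in each experiment, with a summed level of 153 to 170 in knockout libraries, against 504 to 524 in control libraries, and of 557 to 586 in anti-IL-2 libraries, against 496 to 570 in untreated libraries. Foxp3 rose in the knockout (3.09) and fell with anti-IL-2 (-2.45). It met the minimum only in the knockout libraries of the first experiment and only in the untreated libraries of the second. Among 7 B cell genes, 1 of 3 tested rose and 2 fell in the knockout, and 1 of 3 rose with anti-IL-2, in both cases Ighm, the constant region of the mu heavy chain. Ighm was at 2142 and 2119 in knockout libraries, against 1565 and 1538 in control libraries, and at 4133 and 4452 in anti-IL-2 libraries, against 2925 and 2927 in untreated libraries. In the NK list Eomes was the gene tested, higher in the knockout (0.60) and lower with anti-IL-2 (-1.14), and Ncr1 was at 0. In the myeloid list Cd68 fell in both (-0.76 and -2.25). Of the immature thymocyte markers, Dntt fell in both and Rag1 with anti-IL-2 (-2.54). In the IL-2 experiment Dntt and Rag1 met the minimum only in the untreated libraries. The part of such cells in the segment values was not tested.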

How the data were processed

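The submitters' processing notes name the build mm10, DESeq2, StringTie (2.1.4), HISAT2 (2.2.1) and Trim Galore (0.4.4). The read counter, annotation and strand setting are not given in the sources used here. Each library's column, as deposited, holds a normalised signal, that is, gene read counts divided by a DESeq2 size factor within each table. Whole reads were recovered for 100% of values within a tolerance of 0.001. The authors also deposited log2 fold changes (reference over treated), a test score (not used) and p-values. In the authors' deposited table, 5 and 2 included segments had an adjusted p under 0.05 in the knockout and IL-2 experiments.

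The main test was limma 3.58.1 (moderated, mean-variance trend, R 4.3.3) on log2(value + 1), a scale that understates changes of low genes, over genes at or above 10 in 2 or more libraries, with Benjamini-Hochberg adjustment over all. For shares, the log2 locus total was subtracted from each segment. Alternatives on recovered reads used edgeR 4.0.16, which called 9119 and 8409 genes, and DESeq2 1.42.0. Fits were tested on simulated data. Unstranded counting would not separate overlapping genes. The anti-IL-2 columns carry no replicate number and are called A and B. Positions and sequences come from GENCODE M21 (GRCm38).

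Named segments were, per experiment and locus, the 6 with the highest mean share, up to 6 per direction with the smallest adjusted p, the largest rise and fall, those called in both experiments, Trav1, Trav11, Trav11d and the Trbv13 family. Trav12-1, Trav7-3, Trav7d-3, Trav3d-3, Trav12d-2, Trav12n-2, Trav13n-4, Trav19, Trbv26, joining segments and genes of the other lists were named after their values were seen. Members and lists were chosen with earlier results of these data known.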

Additional observations from a re-analysis of the deposited data

Results flagged for a closer look

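The effects of the knockout and of anti-IL-2 differed for 3 segments in a test of the difference itself. Trbv13-2 differed by 0.60 on the log2 scale (0.60 in the knockout and 0.0024 with anti-IL-2), Trbv1 by 0.70 (0.36 and -0.33) and Trav19 by 0.92 (0.36 and -0.56). The differences of Trbv13-2 and Trbv1 passed in every alternative fitted, and that of Trav19 did not. All of these alternatives were limma fits, and the difference was not fitted with edgeR or DESeq2.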

How the results depend on the processing

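Counts of calls depended on the error model and on single libraries. Against 33 segments called in the knockout, 16 passed with a minimum of 50 and 4 with DESeq2, and leaving out 1 library gave 11 to 32. Against 13 with anti-IL-2, 6 passed without a minimum, 6 with a minimum of 50 and 2 with DESeq2. Share calls numbered 15 in the knockout and 6 to 13 on leaving out 1 library, and 10 with anti-IL-2 against 6 with a minimum of 50. Restricting to segments with at least 50% windows of their own, chosen after seeing the data, left 23 and 12 calls, and scaling to total reads, also chosen then, gave 34 and 18 and moved the median of all genes to 0.055 and 0.094. The difference in the effective number of alpha segments (knockout minus control, -0.13) was 0.19 with every symbol, 0.084 with a minimum of 50, 0.015 with copies summed and -0.58 to 0.31 on leaving out 1 library. With anti-IL-2 (-0.0049) it was 0.96, 0.012, 0.98 and -0.73 to 0.72, and 0.020 divided by exon length. The cause was not tested. Among segments that did not pass, signs turned with anti-IL-2 for Trbv3 (0.005; edgeR TMM -0.0053, RLE -0.012, DESeq2 -0.012), Trbv13-2 (-0.010, -0.017 and -0.017) and, scaled to total reads, Trbv12-2 (0.040), Trav16n (0.068) and Trav7-5 (0.011). Leaving out 1 library gave -0.099 to 0.11 for Trbv3, -0.050 to 0.055 for Trbv13-2, -0.11 to 0.041 for Trbv12-2, -0.13 to 0.11 for Trav16n and -0.24 to 0.11 for Trav7-5, and -0.024 to 0.13 for Trbv13-1 in the knockout. In the knockout, same-numbered libraries did not deviate together (correlation 0.0127), and a replicate block called 30 segments and 15 shares. For the IL-2 experiment and the joint model, no paired analysis was possible because the anti-IL-2 columns carry no replicate number. The alpha share was higher in the knockout and with anti-IL-2 under every setting run (differences of 1.77 to 4.85 and of 0.849 to 3.85 percentage points). Depth at Trav17, for example, was 21 and 22 reads in knockout libraries and 9 and 8 in control libraries.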
